A study of Mus musculus with 6 samples.

Results

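The genes described here drive or brake the passage of a cell from G1 into S phase. They are the D cyclins Ccnd1, Ccnd2 and Ccnd3, the E cyclins Ccne1 and Ccne2, the cyclin dependent kinases Cdk2, Cdk4 and Cdk6, and the inhibitors Cdkn1b (p27) and Cdkn2c (p18). They were chosen by name, and every probe set annotated to exactly 1 of them was taken, which gave 27 probe sets for 10 genes out of 45037 probe sets and 18193 gene symbols on the array. RNA came from fetal liver (FL) cells of mouse embryos at E14.5, with 3 Pogz+/+ and 3 Pogz-/- embryos labelled as biological replicates, 1 array each. All were on a C57BL/6 background. The Pogz-/- embryos carried a germline deletion of the 3′ exons of Pogz (a chromatin-associated zinc finger protein), made by crossing floxed mice with β-actin-cre mice, so that every cell type of the liver lacked them. The Pogz+/+ embryos carried no deleted allele. The liver was minced into a cell suspension without sorting, so a lower signal can reflect fewer cells of a type or less RNA per cell, which cannot be told apart in these samples. Values are log2 of the deposited intensity, and a difference is Pogz-/- minus Pogz+/+ on that scale.

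D cyclins are made in response to growth signals and bind Cdk4 or Cdk6, and these complexes phosphorylate the retinoblastoma family of pocket proteins. E2F factors are then released and switch on S phase genes, among them the E cyclins, which bind Cdk2. Inhibitors of the INK4 family such as Cdkn2c bind Cdk4 and Cdk6, whereas Cdkn1b acts mainly on cyclin E with Cdk2 and also binds the cyclin D complexes. The FL is the main site of blood formation at this stage, and most of its cells are erythroblasts, which divide a few more times and leave the cycle as they mature. Cdkn1b and Cdkn2c are known to take part in the cycle exit of maturing erythroid cells.

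The 3 Pogz+/+ arrays did not agree equally well. Pogz+/+ replicate 1 had an actin 3′ to 5′ signal ratio, a measure of RNA degradation, of 52.3, beside 5.50 in replicate 2, 6.63 in replicate 3 and at most 4.09 in Pogz-/- FL. Its correlation with the other arrays was 0.79 to 0.81, and that among the other 5 was 0.88 to 0.91. The median log2 signal of an array lay at 5.17 to 5.76 for Pogz+/+ and at 4.89 to 4.98 for Pogz-/- FL, and the median difference over all probe sets was -0.23. Xist was above a log2 signal of 10 in 1 of 3 Pogz+/+ and 2 of 3 Pogz-/- embryos, so the sexes were not balanced. The brightest of 4 Pogz probe sets had log2 signals of 8.95 to 9.17 in Pogz+/+ and 9.16 to 9.33 in Pogz-/- arrays, 2 of the others were higher and 1 lower in Pogz-/- arrays on average, and none passed the test. Where these probes lie relative to the deleted exons was not known here, so they check neither label, and groups are named as the arrays are labelled. Tests were therefore run on all 6 arrays, where no probe set passed, and on the 5 arrays without Pogz+/+ replicate 1. In this 5-array fit the variance estimate also followed the signal level and was made robust to outlying probe sets (trend and robust options of limma). Pogz+/+ replicates 2 and 3 still had higher actin ratios than every Pogz-/- array. Their Gapdh 3′ to 5′ ratios were 7.37 and 9.29, against 4.87 to 5.08 in Pogz-/- arrays. RNA quality and genotype thus cannot be told apart in the 5-array fit either.

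Among the 27 probe sets, none passed an adjusted p of 0.05 (limma, Benjamini-Hochberg) over 6 arrays, where 0% of all probe sets passed. An unadjusted p under 0.05 was reached by 4, namely 3 higher ones of Ccnd2 and 1 lower one of Ccnd3, against 11.7% of all probe sets. In the 5-array fit, 2 probe sets of Ccnd2 were higher and the Cdkn2c probe set was lower in Pogz-/- FL, against 1.45% of all probe sets called higher and 1.22% called lower. The plain limma fit on the same 5 arrays called 0 of all probe sets, with 4946 at an unadjusted p under 0.05 and 4 of them among the 27. The 3 Pogz-/- arrays lay above all 3 Pogz+/+ arrays for 5 of the 27 probe sets (18.5%), against 9.1% of all probe sets, and 3 of the 5 were Ccnd2. They lay below for 4 of 27 (14.8%), a share close to the 15.8% of all probe sets. The median difference of the 27 was 0.09 over 6 arrays and 0.10 over 5 arrays, beside -0.23 and -0.13 over all probe sets. All but 4 of the 27 were above their own array's median signal in every array, against 15964 of all 45037 probe sets. The 27 were thus brighter than most. Over only the probe sets with a mean signal above the median of such means, the median difference was -0.05 over 6 arrays. Shares without overlap were not computed for bright probe sets alone.

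**Figure D1:**
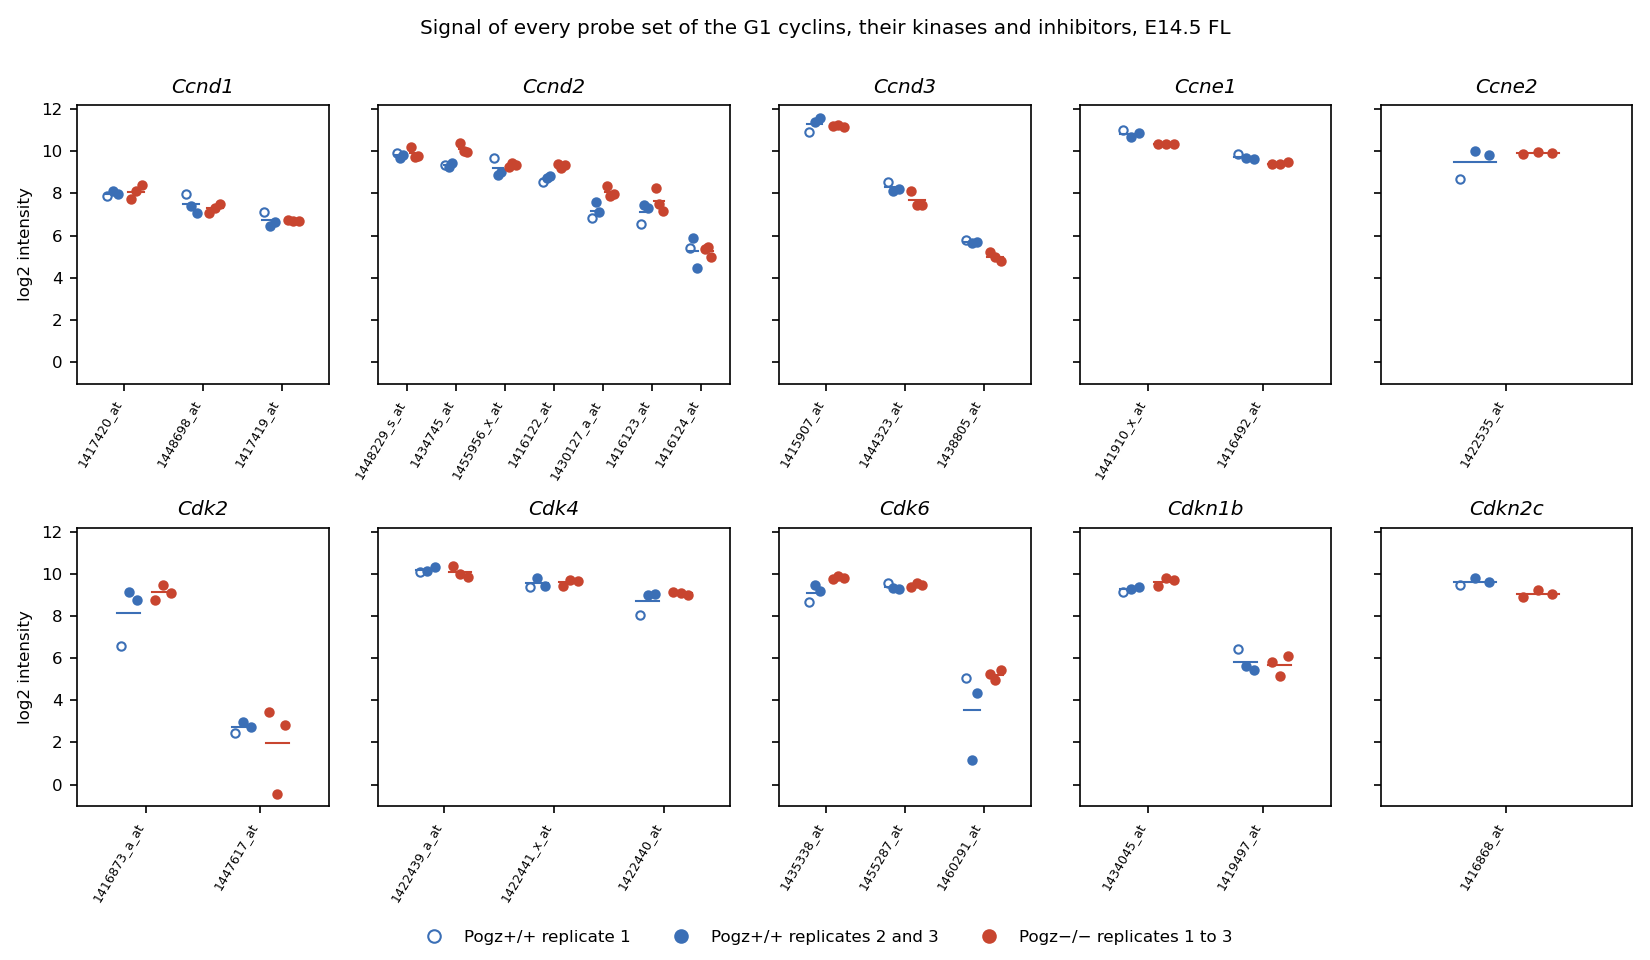
Log2 intensity (y axis) of each of the 27 probe sets (x axis, brightest first within a gene) in the 3 Pogz+/+ arrays (blue, replicate 1 open) and the 3 Pogz-/- arrays (red), as deposited, with short lines at the group means. The red points lie above all blue points for 3 Ccnd2 probe sets, and below them for Cdkn2c and both Ccne1 probe sets, while the open point stands apart from the other blue points for Ccne2 and for the brighter Cdk2 probe set.

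Ccnd2, a D cyclin used by many blood progenitors, was the member with the most probe sets higher in Pogz-/- FL. Its 7 probe sets read the same RNA samples and are not replicates of each other. For probe set 1434745_at the log2 signal was 9.36, 9.26 and 9.42 in Pogz+/+ and 10.39, 10.03 and 9.96 in Pogz-/- arrays. Every Pogz-/- array was above every Pogz+/+ array, and Pogz+/+ replicate 1 lay between the other 2 of its genotype. The difference was 0.78 (SE 0.25, adjusted p = 0.39) over 6 arrays and 0.78 (SE 0.14, adjusted p = 0.015), a 1.72-fold increase, in the 5-array fit.

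Probe set 1416122_at of Ccnd2 had log2 signals of 8.56, 8.72 and 8.83 in Pogz+/+ and 9.40, 9.22 and 9.33 in Pogz-/- arrays. The groups again did not overlap. The difference was 0.61 (SE 0.23, adjusted p = 0.41) over 6 arrays and 0.54 (SE 0.12, adjusted p = 0.042) in the 5-array fit, and after quantile normalization of the 5 arrays the adjusted p was 0.081. A further Ccnd2 probe set, 1430127_a_at, gave 6.81, 7.60 and 7.10 in Pogz+/+ and 8.36, 7.90 and 7.97 in Pogz-/- arrays. It did not overlap between groups but spread more within Pogz+/+, and its difference was 0.91 (adjusted p = 0.40) over 6 arrays and 0.73 (adjusted p = 0.099) in the 5-array fit.

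The other 4 Ccnd2 probe sets overlapped between the groups. The brightest, 1448229_s_at, whose suffix marks probes that can match several transcripts, gave 9.90, 9.66 and 9.84 in Pogz+/+ and 10.20, 9.74 and 9.75 in Pogz-/- arrays, with a 95% confidence interval of the 5-array difference of -0.18 to 0.47. The interval of 1434745_at was 0.48 to 1.09, so the intervals of these 2 probe sets of the same gene did not overlap. Probe set 1455956_x_at was at 9.68, 8.86 and 9.02 in Pogz+/+ and 9.24, 9.43 and 9.33 in Pogz-/- arrays, and Pogz+/+ replicate 1 alone was above the Pogz-/- values. The dimmest pair, 1416123_at and 1416124_at, had differences of 0.51 and 0.03 (adjusted p = 0.60 and 0.98) over 6 arrays and of 0.23 and 0.10 (adjusted p = 0.73 and 0.95) in the 5-array fit. All 7 Ccnd2 differences were above 0 with 6 arrays and in the 5-array fit. Those of 1448229_s_at, 1455956_x_at and 1416124_at were below 0 when another single array was left out (lowest values -0.056, -0.014 and -0.38), that of 1448229_s_at came to -0.0011 after quantile normalization of 6 arrays, and that of 1416124_at to -0.0063 with a pseudocount of 16.

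Ccnd3, the D cyclin whose loss is known to reduce the number of divisions of maturing erythroblasts, was on average lower in Pogz-/- FL at all 3 of its probe sets, and none passed the test. The brightest, 1415907_at, was at 10.90, 11.40 and 11.59 in Pogz+/+ and 11.19, 11.23 and 11.15 in Pogz-/- arrays. The Pogz-/- values lay within 0.1 of each other and below Pogz+/+ replicates 2 and 3 but above replicate 1. The difference was -0.10 (adjusted p = 0.88) over 6 arrays and -0.30 (SE 0.09, adjusted p = 0.12) in the 5-array fit, and it turned to 0.36 when the 6 arrays were centred on their medians. Probe set 1438805_at gave 5.80, 5.62 and 5.68 in Pogz+/+ and 5.20, 4.97 and 4.81 in Pogz-/- arrays, without overlap. Its difference was -0.71 (unadjusted p = 0.027, adjusted p = 0.40) over 6 arrays and -0.66 (adjusted p = 0.43) in the 5-array fit. For 1444323_at, at 8.54, 8.11 and 8.21 in Pogz+/+ and 8.12, 7.44 and 7.45 in Pogz-/- arrays, the difference was -0.62 (adjusted p = 0.46) over 6 arrays and -0.49 (adjusted p = 0.30) in the 5-array fit.

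Ccnd1, the third D cyclin, overlapped between the genotypes at all 3 probe sets. The brightest, 1417420_at, gave 7.89, 8.12 and 7.98 in Pogz+/+ and 7.74, 8.13 and 8.40 in Pogz-/- arrays, so that the lowest and the highest value were both in Pogz-/- FL. Its difference was 0.09 over 6 arrays and 0.04 in the 5-array fit, with a 95% confidence interval of -0.38 to 0.46. The other 2 Ccnd1 probe sets were highest in Pogz+/+ replicate 1, by 0.73 and 0.56 over the mean of replicates 2 and 3, and their differences of -0.19 and -0.03 over 6 arrays became 0.06 and 0.15 without it.

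**Figure D2:**
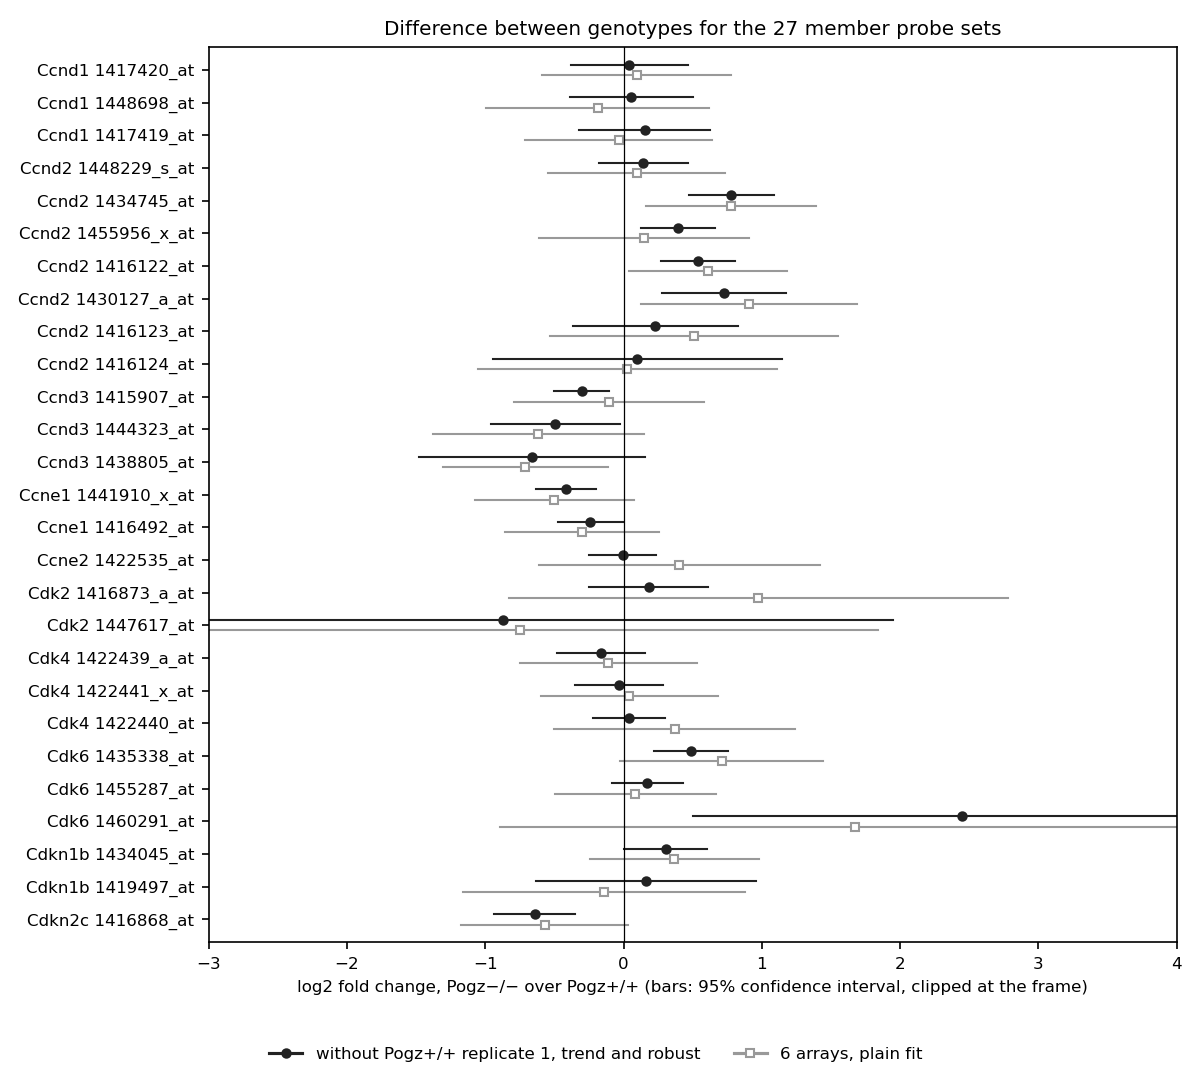
Log2 fold change between Pogz-/- and Pogz+/+ FL (x axis) for each probe set (y axis), with 95% confidence intervals, in the 5-array fit (black circles) and over all 6 arrays (grey squares). Of the 27 unadjusted 5-array intervals 12 do not reach 0, and several of these belong to the same gene. Over all 45037 probe sets, 6967 had an unadjusted p under 0.05 in this limma fit. Ccnd2 1434745_at and 1416122_at and Cdkn2c also passed the adjusted test. The Cdk2 probe set 1416873_a_at moves from 0.98 to 0.18 when Pogz+/+ replicate 1 is left out.

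Both Ccne1 probe sets were lower in all 3 Pogz-/- arrays than in any Pogz+/+ array, without passing the test. Ccne1 is the E cyclin that binds Cdk2 at the start of S phase. Probe set 1441910_x_at was at 11.01, 10.66 and 10.85 in Pogz+/+ and at 10.32, 10.35 and 10.34 in Pogz-/- arrays. The Pogz-/- values were nearly identical, with an SD of 0.015 against 0.17 in Pogz+/+. The difference was -0.50 (SE 0.23, adjusted p = 0.45) over 6 arrays and -0.42 (SE 0.10, adjusted p = 0.051), or 1.33-fold lower, in the 5-array fit, with an adjusted p of 0.043 after quantile normalization and 0.57 after median centring. The second probe set, 1416492_at, gave 9.85, 9.69 and 9.63 in Pogz+/+ and 9.40, 9.39 and 9.47 in Pogz-/- arrays. Its difference was -0.30 (adjusted p = 0.57) over 6 and -0.24 (adjusted p = 0.32) over 5 arrays, and median centring turned it to 0.16 and 0.03.

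For Ccne2, the other E cyclin, 1 array decided the average. Its probe set 1422535_at was at 8.69 in Pogz+/+ replicate 1, at 10.02 and 9.83 in replicates 2 and 3, and at 9.87, 9.99 and 9.90 in Pogz-/- arrays. The difference was 0.40 (adjusted p = 0.67) over 6 arrays and -0.01 in the 5-array fit, with a 95% confidence interval of -0.25 to 0.23.

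The Ccne1 promoter is printed because both of its probe sets were lower without overlap. In this and the windows below, taken from RefSeq on GRCm38.p6 for 7 of the 10 members, bases run 5′ to 3′ in the direction of the gene from 250 before to 50 after its start. Capitals mark matches on either strand to the E2F motif (TTTCCCGC, TTTCGCGC, TTTGCCGC or TTTGGCGC) or to the E-box CACGTG, the letters bound by Myc family factors. The E2F letters were in 2.26% and the E-box in 7.15% of all 32851 windows of this length, and no member window held both motifs. The Ccne1 window held neither and was 76.0% G or C, against a median of 52.7% over all windows. Only these exact letters were searched, so sites that differ from them or lie outside a window would be missed.
Ccne1, chr7:38107441-38107740, minus strand: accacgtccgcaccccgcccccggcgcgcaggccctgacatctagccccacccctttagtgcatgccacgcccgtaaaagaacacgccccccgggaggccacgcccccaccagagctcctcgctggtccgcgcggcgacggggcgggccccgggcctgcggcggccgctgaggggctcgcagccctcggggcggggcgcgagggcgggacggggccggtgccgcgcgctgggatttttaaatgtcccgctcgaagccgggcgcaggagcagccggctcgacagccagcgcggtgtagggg

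Cdk2, the partner of the E cyclins, had a bright and a dim probe set. The bright one, 1416873_a_at, was at 6.56 in Pogz+/+ replicate 1, at 9.14 and 8.74 in replicates 2 and 3, and at 8.78, 9.49 and 9.09 in Pogz-/- arrays. Replicate 1 was thus 2.38 below the mean of its group's other arrays, the widest such gap among the brightest probe sets of the members. The difference of 0.98 (adjusted p = 0.57) over 6 arrays became 0.18 (adjusted p = 0.71) without it. The dim probe set, 1447617_at, ranged from -0.43 to 3.47 among the Pogz-/- arrays alone. Of the 9 member windows, that of Cdk2 was the only one with the E2F letters, as GCGGGAAA starting 111 bases from its first base.

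Cdk4 and Cdk6 both pair with the D cyclins, and Cdk6 is abundant in blood progenitors. Cdk6 probe set 1435338_at was at 8.66, 9.47 and 9.20 in Pogz+/+ and at 9.75, 9.92 and 9.79 in Pogz-/- arrays. All Pogz-/- arrays were above all Pogz+/+ arrays, and Pogz+/+ replicate 1 was the lowest. The difference was 0.71 (SE 0.30, adjusted p = 0.43) over 6 arrays and 0.49 (SE 0.12, adjusted p = 0.063), 1.40-fold, in the 5-array fit, with an adjusted p of 0.0040 when those arrays were centred on their medians and 0.10 after quantile normalization. Probe set 1455287_at of Cdk6 gave 9.57, 9.33 and 9.29 in Pogz+/+ and 9.37, 9.58 and 9.50 in Pogz-/- arrays, and overlapped. Its 5-array difference was 0.17 (95% confidence interval -0.08 to 0.43). The dimmest, 1460291_at, was at 5.08, 1.17 and 4.35 in Pogz+/+ and 5.23, 4.96 and 5.42 in Pogz-/- arrays, so its 5-array difference of 2.45 (adjusted p = 0.21) rested on the value of 1.17.

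The 3 Cdk4 probe sets overlapped between the groups. The brightest, 1422439_a_at, gave 10.08, 10.13 and 10.34 in Pogz+/+ and 10.36, 10.01 and 9.85 in Pogz-/- arrays, a difference of -0.11 over 6 and -0.16 (95% confidence interval -0.48 to 0.16) over 5 arrays. The other 2 had 5-array differences of -0.04 and 0.04, with intervals of -0.35 to 0.28 and -0.22 to 0.30. Probe set 1422440_at was 0.99 lower in Pogz+/+ replicate 1 than in replicates 2 and 3, and its difference over 6 arrays was 0.37.

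The windows of Cdk6 and Cdk4 are shown as a pair whose signals differed unequally between the genotypes (below). The E-box letters occurred 4 times in the Cdk4 window, starting at bases 79, 133, 153 and 240, and once in that of Cdk6, at base 31, counted from the first base printed.
Cdk6, chr5:3343643-3343942, plus strand: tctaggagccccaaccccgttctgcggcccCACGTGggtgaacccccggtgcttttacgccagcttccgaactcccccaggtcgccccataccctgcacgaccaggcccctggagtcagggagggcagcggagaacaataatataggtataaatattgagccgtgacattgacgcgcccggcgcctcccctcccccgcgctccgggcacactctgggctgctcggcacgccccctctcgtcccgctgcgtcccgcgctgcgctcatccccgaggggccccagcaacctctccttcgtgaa
Cdk4, chr10:127063285-127063584, plus strand: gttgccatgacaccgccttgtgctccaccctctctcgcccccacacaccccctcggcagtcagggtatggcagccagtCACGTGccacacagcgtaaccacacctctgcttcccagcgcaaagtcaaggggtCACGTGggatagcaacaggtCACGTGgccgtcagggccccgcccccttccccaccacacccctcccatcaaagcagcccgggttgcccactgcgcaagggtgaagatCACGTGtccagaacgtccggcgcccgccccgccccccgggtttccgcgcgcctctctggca

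Cdkn2c, which encodes the Cdk4 and Cdk6 inhibitor p18, was the one member called lower in the 5-array fit. Its only probe set, 1416868_at, was at 9.50, 9.82 and 9.61 in Pogz+/+ and at 8.91, 9.23 and 9.06 in Pogz-/- arrays. The groups did not overlap, and Pogz+/+ replicate 1 was the Pogz+/+ array closest to Pogz-/-. The difference was -0.57 (SE 0.24, adjusted p = 0.43) over 6 arrays and -0.64 (SE 0.13, adjusted p = 0.028), a 1.56-fold decrease, in the 5-array fit. After quantile normalization of the 5 arrays it was -0.70 (adjusted p = 0.025), and after median centring -0.37 (adjusted p = 0.14).

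For Cdkn1b neither probe set passed the test over 6 arrays or in the 5-array fit. Its brighter probe set, 1434045_at, was at 9.15, 9.28 and 9.40 in Pogz+/+ and at 9.41, 9.82 and 9.69 in Pogz-/- arrays, and the nearest arrays of the groups were almost equal. The difference was 0.37 (adjusted p = 0.54) over 6 arrays and 0.30 (95% confidence interval 0.01 to 0.60, adjusted p = 0.32) in the 5-array fit, and it passed after median centring of the 5 arrays (adjusted p = 0.030). The dimmer one, 1419497_at, gave 6.45, 5.63 and 5.44 in Pogz+/+ and 5.84, 5.16 and 6.10 in Pogz-/- arrays and overlapped, with a difference of -0.14 over 6 and 0.16 over 5 arrays.

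RefSeq lists a pair of start sites for Cdkn2c, and both windows are printed because its signal was called lower. The window of the first line is 73.3% and that of the second 44.0% G or C, and only the second held a match, an E-box starting at base 285.
Cdkn2c, chr4:109666707-109667006, minus strand: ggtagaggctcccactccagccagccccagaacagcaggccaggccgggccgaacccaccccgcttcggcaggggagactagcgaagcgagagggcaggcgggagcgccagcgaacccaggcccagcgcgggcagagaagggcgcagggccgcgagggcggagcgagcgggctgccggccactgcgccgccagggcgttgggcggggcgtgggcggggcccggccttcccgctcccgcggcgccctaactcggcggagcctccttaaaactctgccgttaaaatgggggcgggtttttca
Cdkn2c, chr4:109665323-109665622, minus strand: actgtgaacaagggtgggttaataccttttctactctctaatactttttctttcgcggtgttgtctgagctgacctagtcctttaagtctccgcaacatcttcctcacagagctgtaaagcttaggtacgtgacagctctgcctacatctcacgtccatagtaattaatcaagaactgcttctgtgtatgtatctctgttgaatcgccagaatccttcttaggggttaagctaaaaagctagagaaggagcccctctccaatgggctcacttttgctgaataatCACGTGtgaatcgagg

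Members with related roles were then compared as ratios within each array, where a scaling factor common to the array cancels. The brightest probe set stood for each gene and 5 pairs were compared, and since different probes bind with different strength, only the change of a ratio between genotypes has a meaning. With 3 arrays against 3 the smallest p of the two-sided exact permutation test is 0.1, so none could pass 0.05. The log2 ratio of Cdkn1b to Cdkn2c was -0.35, -0.54 and -0.21 in Pogz+/+ and 0.50, 0.58 and 0.63 in Pogz-/- arrays. It was thus 0.94 higher in Pogz-/- FL (exact permutation p = 0.1, adjusted over the 5 pairs 0.17) and 0.95 higher over 5 arrays. With the dimmer Cdkn1b probe set the groups overlapped.

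The log2 ratio of Cdk6 to Cdk4 was -1.42, -0.66 and -1.14 in Pogz+/+ and -0.61, -0.09 and -0.06 in Pogz-/- arrays, without overlap. It was 0.82 higher over 6 arrays (exact permutation p = 0.1) and 0.65 higher over 5. Of the 9 pairs of a Cdk6 with a Cdk4 probe set, 3 were higher in Pogz-/- FL without overlap. The ratio of Ccne2 to Ccne1 was -2.32, -0.64 and -1.02 in Pogz+/+ and -0.46, -0.36 and -0.45 in Pogz-/- arrays. Its difference of 0.90 (exact permutation p = 0.1) was 0.41 without Pogz+/+ replicate 1. Between D cyclins, the ratio of Ccnd2 to Ccnd3 was 0.20 higher (exact permutation p = 0.5) over 6 arrays and 0.45 over 5 arrays. For Ccnd2 over Ccnd1 the group means were equal to 2 decimals at 1.81. Ccnd2 stood here as 1448229_s_at, which overlapped between the groups. With every Ccnd2 probe set, the ratio was higher in Pogz-/- FL without overlap in 14 of 21 probe set pairs with Ccnd3. With Ccnd1 this held for 9 of 21 pairs, and 0 pairs were lower in either comparison. The pairs share probe sets and arrays and are not replicates. The share of such pairs over all probe sets was not computed, so these pair counts, also those of Cdk6 with Cdk4, have no background to be read against.

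**Figure D3:**
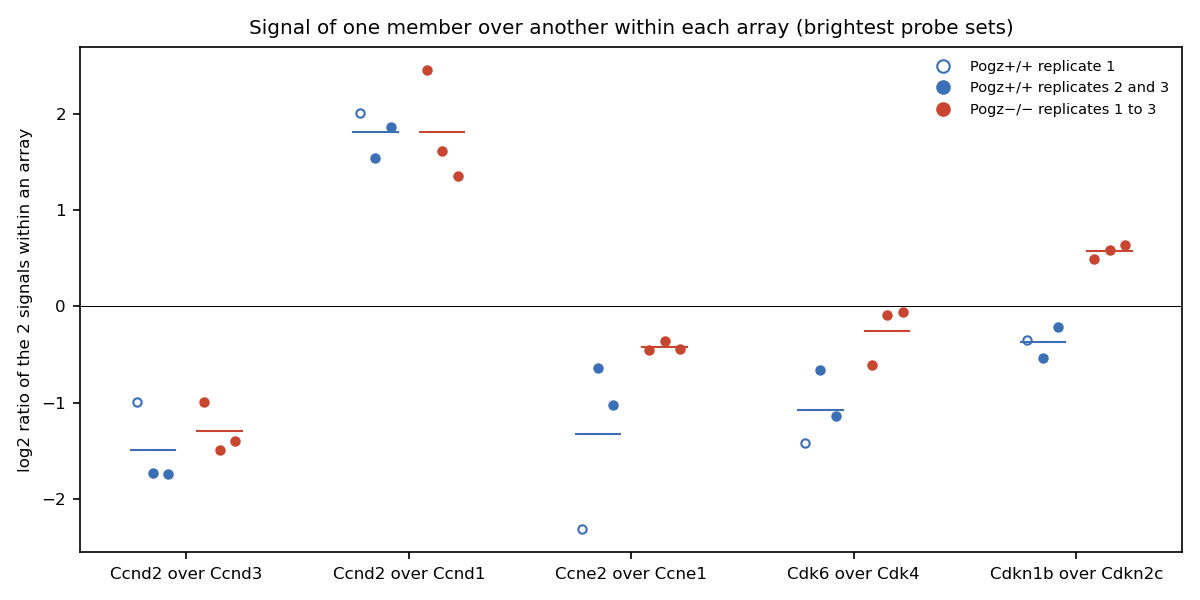
Log2 ratio of the signals of 2 members within each array (y axis) for 5 pairs (x axis) in Pogz+/+ (blue, replicate 1 open) and Pogz-/- arrays (red), with short lines at the group means. Each member is shown by its brightest probe set only. Cdkn1b over Cdkn2c lies between -0.54 and -0.21 in Pogz+/+ and between 0.50 and 0.63 in Pogz-/- FL, and Ccnd2 over Ccnd1 overlaps between the groups.

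The other genes of the G1 to S pathway, 38 genes with 77 probe sets listed by function, held 0 calls over 6 arrays and 6 in the 5-array fit, with 2 probe sets higher and 4 lower in Pogz-/- FL. Their groups did not overlap for 9 higher (11.7%) and 12 lower (15.6%) probe sets, near the shares over all probe sets (9.1% and 15.8%). The median difference of the 77 was 0.03 over 6 and -0.03 over 5 arrays.

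Among the pocket proteins, which bind E2F factors in G1, Rbl2 (p130), the family member typical of resting cells, rose in the 5-array fit. Its probe set 1425981_a_at was at 6.19, 6.66 and 6.45 in Pogz+/+ and 7.42, 7.44 and 7.61 in Pogz-/- arrays, a difference of 0.93 (adjusted p = 0.027) over 5 and 1.06 (adjusted p = 0.37) over 6 arrays. All 3 Pogz-/- arrays were higher. Rb1 and Rbl1 had no probe set called with these settings.

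Of the 21 probe sets of E2F and DP factors, 19 had a 5-array difference below 0 as deposited, 19 after quantile normalization and 10 after median centring. As deposited, 26357 of all 45037 probe sets were below 0 in this fit. The only one of the 21 called was E2f7, a repressor of E2F target genes, at 8.50, 8.63 and 8.92 in Pogz+/+ and 7.62, 8.12 and 7.80 in Pogz-/- arrays. Its 5-array difference was -0.92 on the log2 scale (adjusted p = 0.021, against 0.39 over 6 arrays). Non-overlapping lower values were found for 6 of the 21 probe sets and higher ones for 0, beside 15.8% and 9.1% of all probe sets. The median of the 21 was -0.25 over 5 arrays.

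Of the other inhibitors, Cdkn2d (p19), an INK4 inhibitor like Cdkn2c, was lower in the 5-array fit. It was at 9.62, 10.28 and 10.39 in Pogz+/+ and at 9.59, 9.71 and 9.48 in Pogz-/- arrays, and Pogz+/+ replicate 1 fell among the Pogz-/- values. The difference was -0.73 (adjusted p = 0.0073) over 5 and -0.50 (adjusted p = 0.51) over 6 arrays. For Cdkn1a (p21), a dim probe set, 1421679_a_at, was at 3.32, 3.66 and 3.49 in Pogz+/+ and at 5.57, 5.67 and 5.78 in Pogz-/- arrays, and was called higher by 2.10 (adjusted p = 0.034, against 0.21 over 6 arrays). The brighter Cdkn1a probe set differed by -0.24 and was not called, so the probe sets of this gene disagreed.

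Cdc25b, a phosphatase that activates cyclin dependent kinases, was at 10.87, 11.06 and 11.17 in Pogz+/+ and 10.59, 10.79 and 10.53 in Pogz-/- arrays (5-array difference -0.47, adjusted p = 0.036). Over 6 arrays the difference was -0.39 (adjusted p = 0.51), and after median centring of the 5 arrays it was -0.20 (adjusted p = 0.36). Cks1b, a cofactor of the Skp2 ubiquitin ligase that marks Cdkn1b for degradation, was at 13.73, 13.04 and 13.02 in Pogz+/+ and 12.69, 12.70 and 12.61 in Pogz-/- arrays at its brightest probe set (5-array difference -0.36, adjusted p = 0.020, against 0.46 over 6 arrays). After quantile normalization of the 5 arrays it was -0.18 (adjusted p = 0.23) and after median centring -0.09 (adjusted p = 0.63), and the other Cks1b probe set was higher in Pogz-/- FL. In the lists without a call, the gene whose brightest probe set had the largest absolute moderated t over 6 arrays was Ccna1 among the A cyclins (0.40, adjusted p = 0.88) and Cdc37 among the D cyclin cofactors (0.57, adjusted p = 0.50). The Ccna1 probe set was dim, above the array median in 2 of 6 arrays. Ccna2, far brighter, differed by -0.04 (adjusted p = 0.95) over 6 arrays.

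**Figure D4:**
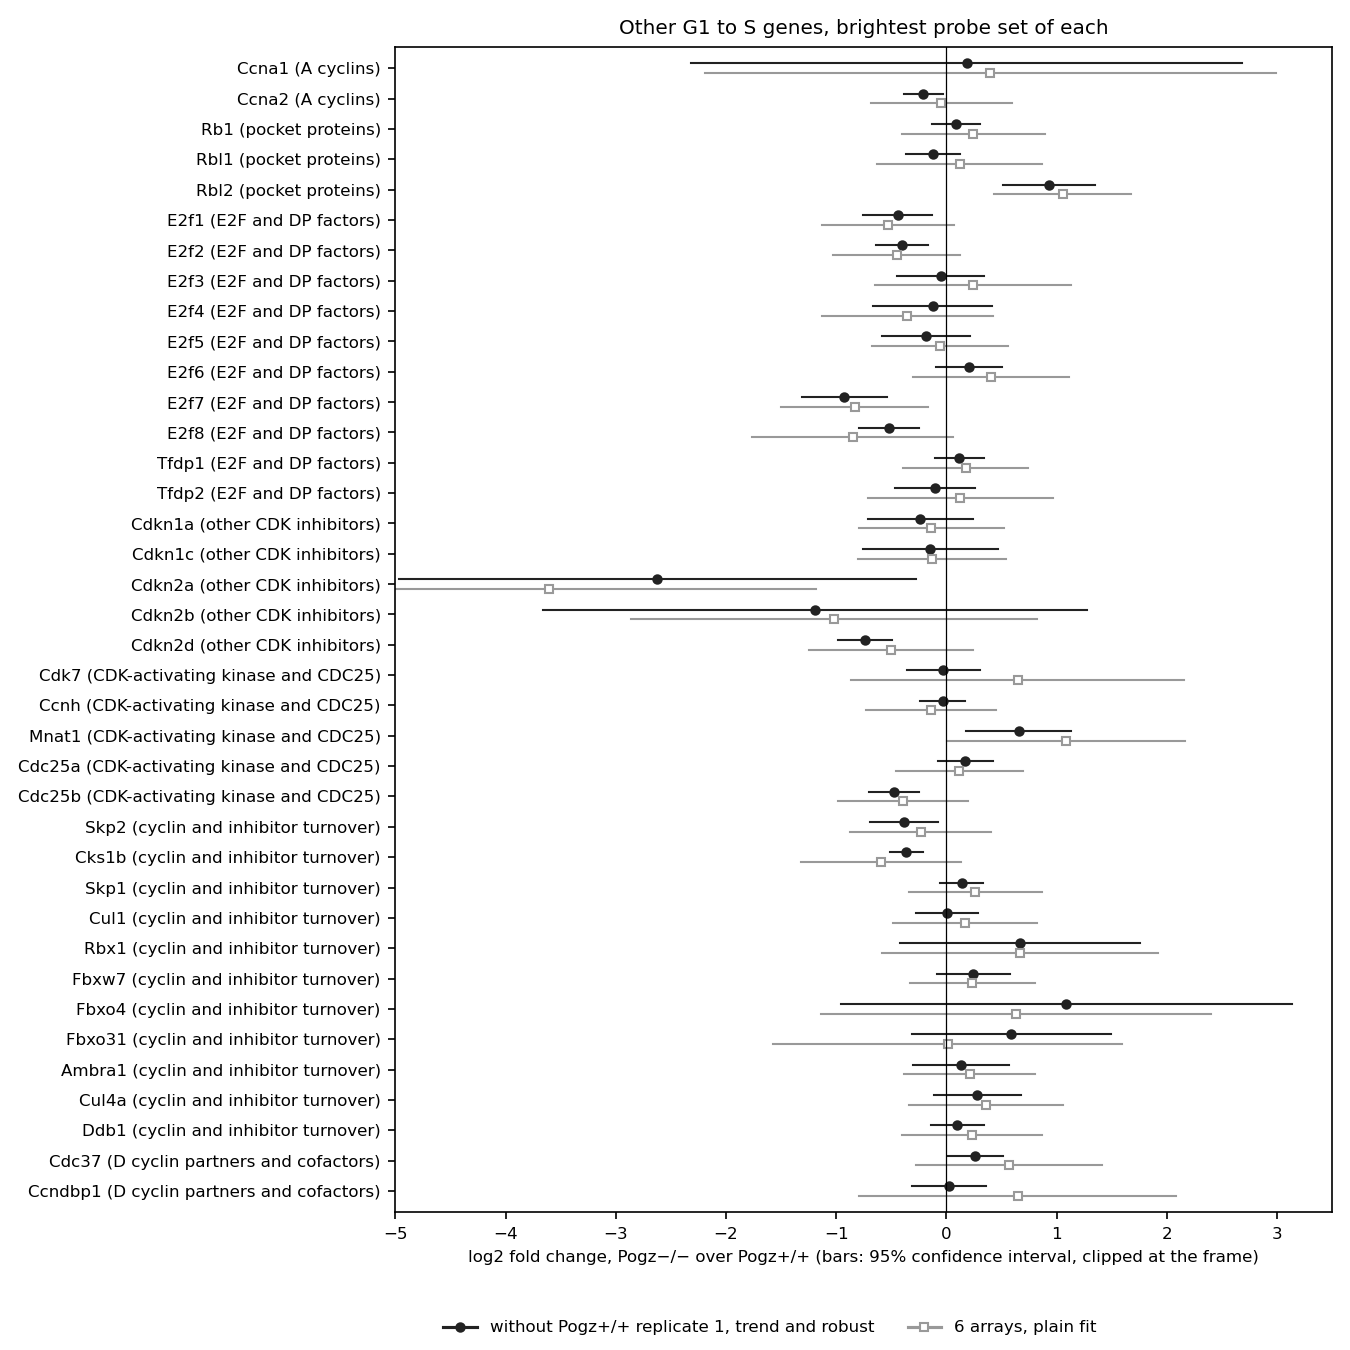
Log2 fold change between Pogz-/- and Pogz+/+ FL (x axis) of the brightest probe set of 38 other G1 to S genes (y axis, with the list of each gene), with 95% confidence intervals, in the 5-array fit (black circles) and over 6 arrays (grey squares). In the 5-array fit Rbl2 lies at 0.93, E2f7 at -0.92 and Cdkn2d at -0.73, with intervals that do not reach 0.

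Some cell type markers also differed between the genotypes. Of 7 erythroid markers 4 were measured, all above the array median in every array, and all 4 were lower in Pogz-/- FL without overlap, with Klf1 (-0.39), Slc4a1 (-0.69) and Alas2 (-0.48) called in the 5-array fit. Klf1 did not pass after quantile normalization of the 5 arrays (-0.17, adjusted p = 0.32) or median centring (-0.12, adjusted p = 0.57). Nor did Alas2 (-0.29, adjusted p = 0.11, and -0.21, adjusted p = 0.19). The brightest Slc4a1 probe set passed under both. Another bright Slc4a1 probe set was called as deposited (-0.38, adjusted p = 0.0098). It did not pass after quantile normalization (-0.14, adjusted p = 0.35) or median centring (-0.11, adjusted p = 0.45). The intensities of the 4 erythroid markers summed to between 40435 and 65392 in Pogz+/+ arrays and between 26190 and 28621 in Pogz-/- arrays. Of 4 progenitor markers Kit (0.91) and Myb (0.45) were called higher, whereas Cd34 (-0.19) and Gata2 (-0.43) were not called, and the sums ran from 1939 to 2643 and from 3214 to 3596, in the same order. Of 4 granulocyte markers Camp (1.09) and Lcn2 (0.59) were called higher, Lcn2 not after quantile normalization (adjusted p = 0.051). Mpo (0.12) and Elane (0.19) were not called and overlapped between the groups over 6 arrays. The granulocyte sums were 8812 to 9466 and 10936 to 12450. Of 4 hepatoblast markers Afp was called lower (-0.66), but not after quantile normalization (-0.35, adjusted p = 0.34) or median centring (-0.38, adjusted p = 0.067). Ttr (-0.53) and Apoa1 (-0.64) were not called, nor was Alb, which went the other way (0.41). Each of these overlapped between the groups at its brightest probe set. The hepatoblast sums were 26583 to 49501 and 16339 to 25528. No macrophage marker of 4 was called, with sums of 3480 to 4492 and 2593 to 3316. No marker of these 5 lists was at 0, and no B cell, megakaryocyte or endothelial and stromal marker was called. The sums add linear intensities, so the brightest gene of a list weighs most in their level, though not always in their difference between the groups. In the order of the lists above these were Slc4a1, Myb, Mpo, Afp and Csf1r. The macrophage sums did not overlap between the groups, although Adgre1, C1qa and Vcam1 each did at their brightest probe set. Over 6 arrays none of the markers passed. The part of these shifts in cell markers in the differences of Ccnd2, Cdk6, Ccne1 and Cdkn2c was not tested.

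With Pogz+/+ replicate 1 and 1 further array left out, Ccnd2 1434745_at was called in 2 of 5 fits, Cdkn2c in 1 and Ccnd2 1416122_at in 0, while their differences kept their size, at 0.65 to 0.87, -0.75 to -0.54 and 0.48 to 0.59. In the fits also without Pogz+/+ replicate 2 or 3, which called 0 of the 27, a single Pogz+/+ array was compared with 3 Pogz-/- arrays and assumed to vary like them.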

How the data were processed

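The 6 arrays of E14.5 FL cells (3 Pogz-WT, 3 Pogz-KO) were hybridized after amplification from the 3′ end of RNA. The authors deposited linear intensity values per probe set, made with Affymetrix Expression Console, with version and summary algorithm not given in the sources used here. The mean after trimming 2% of values was 150 in every array, so values are relative within an array. Precision is limited by the number of arrays. Here 64 control probe sets were left out and log2 was taken without a pseudocount. Then limma 3.58.1 (R 4.3.3, lmFit and eBayes) was fitted over 45037 probe sets with genotype as the only term and Benjamini-Hochberg adjustment over all. The fits were run on simulated data with the spread of the 5 arrays. That simulation held no array like Pogz-WT replicate 1, so it does not show how the fits behave with such an array. A probe set named a gene where the annotation gave exactly 1 (34945; 932 gave several and 9160 none). All probe sets of the 10 members are reported. Of the pathway list, genes called in either fit were named, and otherwise the gene with the largest moderated t over 6 arrays among brightest probe sets of a list. Members, lists and the 5-array fit were chosen with earlier results of these data known. Alternatives were quantile normalization, median centring, a pseudocount of 16, a filter on dim probe sets, trend and robust options, the replicate number as a block, the methods' t-test and leaving out arrays.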

Additional observations from a re-analysis of the deposited data

How the results depend on the processing

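Over 6 arrays, 0 of the 27 probe sets passed under quantile normalization, median centring, a pseudocount of 16, the filter, the methods' t-test, trend and robust, or without any 1 array. Over all probe sets the t-test called 2 and trend and robust 17 (14 higher). With trend and robust and 1 array left out, all probe sets gave 6 (Pogz-WT replicate 2), 2 (Pogz-WT replicate 3), 1 (Pogz-KO replicate 1), 1 (Pogz-KO replicate 2), 2 (Pogz-KO replicate 3) and 1202 (Pogz-WT replicate 1, the 5-array fit). The last called 3 of the 27 and 6 pathway probe sets. On the same 5 arrays, quantile normalization called 974 in all, 3 of the 27 (Ccnd2 1434745_at, Ccne1 1441910_x_at, Cdkn2c) and 6 pathway probe sets. Median centring called 2912 (2767 higher, 145 lower, against 654 and 548), 6 of the 27 (4 of Ccnd2, Cdk6 1435338_at and Cdkn1b 1434045_at, not Cdkn2c) and 11 of the pathway. It moved the median of all probe sets from -0.13 to 0.14. A pseudocount of 16 called 1178, 3 and 6. With 4 arrays, all probe sets gave 149 (also without Pogz-WT replicate 2), 89 (Pogz-WT replicate 3), 1121 (Pogz-KO replicate 1), 453 (Pogz-KO replicate 2) and 176 (Pogz-KO replicate 3). The first 2 of these fits had 1 Pogz-WT array. The 5 fits held 0, 0, 1, 2 and 0 of the 27 and 1, 0, 3, 3 and 0 pathway probe sets. These added settings were chosen after seeing the data.

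Replicate numbers did not pair the arrays (correlations of deviations 0.0078, -0.0044 and -0.0050), and the replicate block called 0 of the 27, 0 pathway and 0 of all probe sets (4582 at an unadjusted p under 0.05).

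Some small differences, none called, changed sign. Over 6 arrays, quantile normalization gave 0.020 for Ccnd1 1417419_at, -0.0011 for Ccnd2 1448229_s_at, -0.077 for Cdk4 1422441_x_at, -0.017 for Cdk6 1455287_at and 0.14 for Cdkn1b 1419497_at. Median centring gave 0.27 for Ccnd1 1448698_at, 0.43 for Ccnd1 1417419_at, 0.36 for Ccnd3 1415907_at, 0.16 for Ccne1 1416492_at, 0.35 for Cdk4 1422439_a_at and 0.32 for Cdkn1b 1419497_at. A pseudocount of 16 gave -0.0063 for Ccnd2 1416124_at and 0.0028 for the ratio of Ccnd2 to Ccnd1. The 5-array fit gave 0.058 and 0.15 for the last 2 Ccnd1 probe sets, -0.0072 for Ccne2, -0.036 for Cdk4 1422441_x_at and 0.16 for Cdkn1b 1419497_at. With quantile normalization these were 0.025, 0.19, -0.056, -0.092 and 0.36, with -0.00025 for Ccnd1 1417420_at and -0.023 for Cdk4 1422440_at. With median centring they were 0.33 and 0.43 for Ccnd1 and 0.44 for Cdkn1b 1419497_at, with 0.033 for Ccne1 1416492_at and 0.11 for Cdk4 1422439_a_at. With the pseudocount they were 0.053, 0.13, -0.0071, -0.035 and 0.13. Leaving out each array in turn, differences ranged from -0.060 to 0.27 (Ccnd1 1417420_at), -0.39 to 0.058 (1448698_at), -0.18 to 0.15 (1417419_at), -0.056 to 0.17 (Ccnd2 1448229_s_at), -0.014 to 0.40 (1455956_x_at), -0.38 to 0.35 (1416124_at), -0.30 to 0.043 (Ccnd3 1415907_at), -0.0072 to 0.66 (Ccne2), -1.50 to 0.45 (Cdk2 1447617_at), -0.25 to 0.0012 (Cdk4 1422439_a_at), -0.036 to 0.18 (1422441_x_at), -0.34 to 0.16 (Cdkn1b 1419497_at) and -0.32 to 0.23 (ratio of Ccnd2 to Ccnd1). The cause was not tested.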
